A study of Mus musculus with 56 samples.

Results

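Primary mouse keratinocytes were compared after 48 h and after 6 h of transforming growth factor β1 (TGF-β1). The comparison took every Balb/c primary array of the usual dye orientation at these times, 3 arrays at 48 h (replicates 1, 2 and 5) and 7 arrays at 6 h (replicates 1 to 7), which is 10 of the 56 arrays of the series. Both groups were keratinocytes isolated from newborn Balb/c mice and cultured without any added oncogene, and both received TGF-β1 at 1 ng/ml. Each array carried treated RNA labelled with Cy5 and untreated RNA of the same cells labelled with Cy3, so a value is a log2 ratio of the RNA of treated cells over that of untreated cells, with each array's median set to 0. The log base and the direction are not stated in the sources used here; base 2 was taken from the sizes of the values, and the order of the channels in the labels makes treated RNA the likely numerator. The harvest time of the untreated cells is not given in the sources used here. A difference of 48 h minus 6 h is therefore a difference between 2 ratios, and a change in treated RNA and a change in untreated RNA cannot be told apart. The labels name several arrays of 1 condition and do not say that they came from separate cultures. The p-values and standard errors rest on the spread between arrays within groups, which may be technical. This spread was pooled for each feature over the groups of all 49 arrays fitted, so it is not that of the 10 compared arrays alone. Ras keratinocytes, the same kind of Balb/c cells into which a retrovirus had brought the Ha-ras oncogene, gave the same comparison. They had 4 arrays at 48 h and 7 arrays at 6 h. The fit also held both cell types at 1 h and 24 h. It further held Smad3 wild type and Smad3 knockout cells of both types at 48 h, with 1 array per group.

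TGF-β1 binds paired receptor kinases that phosphorylate the transcription factors Smad2 and Smad3, which enter the nucleus with Smad4 and act on target genes. In keratinocytes the factor is known to arrest growth, to induce extracellular matrix, proteases and their inhibitors, and, over longer exposure, to shift cells towards mesenchymal gene expression. Early targets include feedback inhibitors of the pathway itself, whereas matrix genes usually follow later.

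The 10 arrays differed in quality. At 48 h the standard deviation (SD) of the log2 ratios over all probes was 0.564 to 0.894, and at 6 h it was 0.194 to 1.68. The widest was 6 h replicate 1, where 5.05% of probes had values beyond 4 in size. The arrays at 48 h correlated with the mean of the other 48 h arrays at 0.363 to 0.382, and those at 6 h with the mean of the other 6 h arrays at -0.0677 to 0.241. The correlation was 0.0148 for 6 h replicate 4 and 0.159 for replicate 1. It was lowest, at -0.0677, for replicate 2, which was kept, so it does not set replicates 1 and 4 apart. Results are given with all 7 arrays at 6 h and without replicates 1 and 4. The signal behind each ratio was not used here, so the number of arrays limits the precision. A further 2 arrays at 48 h of reversed dye orientation (replicates 3 and 4) stayed out of the comparison.

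Among the genes with higher ratios at 48 h than at 6 h were genes of the extracellular matrix, chemokines for monocytes and mesenchymal genes, and among those with lower ratios were genes of the epithelial barrier. Of 8905 features (6795 named genes and 2110 unnamed probes), 165 were higher (1.85%) and 79 were lower (0.887%) at 48 h, by limma with Benjamini-Hochberg adjusted p under 0.05. Named genes made up 138 of the higher and 64 of the lower features. Without 6 h replicates 1 and 4 the counts were 112 higher (1.26%) and 48 lower (0.539%). Among the 244 features called with all 7 arrays, 148 were also called without these 2 arrays and 96 were not. A further 12 were called only without them. No feature called in either fit had opposite signs in both. Over all features the median difference was 0.01, and 50.8% of features had a positive one.

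The features called at 48 h were mostly near a ratio of no change at 6 h. For the 165 higher features the median of the mean log2 ratios was 1.24 at 48 h and 0.03 at 6 h. For the 79 lower features it was -1.72 at 48 h and 0.04 at 6 h. All 3 arrays at 48 h lay above all 7 arrays at 6 h in 135 of the 165 higher features, against 4.58% of all features. They lay below them in 32 of the 79 lower features, against 2.68% of all features. The calls rest on the same values, so these counts are a description. A single value beyond 4 in size on a 48 h array was present in 6 of the higher and 32 of the lower features, against 1.73% of all features. The choice of 48 h arrays mattered for the counts. Without 48 h replicate 1 there were 103 higher features and 86 lower, without replicate 2 there were 82 and 49, and without replicate 5 there were 197 and 164.

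The largest rises among named genes that were called in both fits, with no overlap between the 48 h arrays and the 5 remaining 6 h arrays, included secreted signals for macrophages. Ccl7, a chemokine that attracts monocytes, had log2 ratios of 3.31, 3.65 and 2.25 at 48 h, against 0.08, 0.52 and 1.12 (lowest, median and highest) at 6 h. All 3 arrays at 48 h were above every 6 h array, and the difference was 2.59 ± 0.33 (standard error of the fit, SE), a 6.02-fold higher ratio (limma adjusted p = 2.35e-06). Csf1, the growth factor of macrophages, had 3.41, 3.59 and 2.22 at 48 h, against -1.61, 0.82 and 1.27 at 6 h. The groups were again apart, and the lowest 6 h value was that of replicate 4. The difference was 2.58 ± 0.45 with all 7 arrays and 2.27 without replicates 1 and 4 (limma adjusted p = 0.000355 and 0.000738). Ccl2, another monocyte chemokine, was not among the 12 largest rises and is named from the chemokine list. Its values were 3.09, 3.01 and 1.90 at 48 h, against -0.55, 0.42 and 1.47 at 6 h. The difference was 2.05 ± 0.36 with no overlap (limma adjusted p = 0.000404).

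Matrix genes and an inhibitor of matrix proteases followed closely. Fbln5, which helps to assemble elastic fibres, had 2.84, 3.11 and 1.93 at 48 h, against -0.39, -0.08 and 0.51 at 6 h. The 48 h arrays were all higher, by 2.62 ± 0.44 (limma adjusted p = 0.00025). Timp1, an inhibitor of matrix metalloproteinases, had 2.68, 3.11 and 2.21 at 48 h, against -0.77, 0.39 and 0.74 at 6 h, a difference of 2.42 ± 0.41 (limma adjusted p = 0.00025). Bgn, the proteoglycan biglycan, had 2.31, 1.95 and 2.11 at 48 h, against -1.11, -0.05 and 0.39 at 6 h. Its arrays at 48 h lay close together, and the difference was 2.31 ± 0.34 (limma adjusted p = 2.7e-05).

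Other large rises concerned intracellular binding proteins and enzymes. S100a4, a calcium-binding protein used as a mesenchymal marker, had 2.12, 2.96 and 2.07 at 48 h, against -0.94, -0.03 and 0.57 at 6 h. Crabp1, which binds retinoic acid in the cytoplasm, had 2.70, 2.48 and 2.07 at 48 h, against -0.84, 0.03 and 0.42 at 6 h. Both genes were apart at the 2 times, with differences of 2.55 ± 0.36 and 2.50 ± 0.32 (limma adjusted p = 1.87e-05 and 2.74e-06). Ddah1, which degrades an inhibitor of nitric oxide synthase, had 2.03, 2.91 and 1.65 at 48 h, against -1.003, 0.07 and 0.53 at 6 h. Its difference of 2.31 ± 0.25 had the smallest adjusted p of the named rises (1.45e-07, limma). Lyz2, the lysozyme of macrophages, had 2.74, 3.12 and 1.89 at 48 h, against -0.13, 0.21 and 0.65 at 6 h, a difference of 2.35 ± 0.30 (limma adjusted p = 2.35e-06). Lyz2 is also one of the 20 myeloid and lymphoid markers described below.

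The remaining 3 of the 12 largest rises took much of their size from 1 array. Gng2, a G protein subunit, had 7.95, 1.96 and 0.83 at 48 h, against -0.03, 0.07 and 0.62 at 6 h. Its mean at 48 h was 3.58 ± 3.82 (SD, n = 3), and its difference of 3.43 was not called without 48 h replicate 1 (limma adjusted p = 0.0972). Crtap, part of a complex that hydroxylates collagen prolines, had 1.15, 4.73 and 1.02 at 48 h, against -1.11, -0.17 and 0.21 at 6 h. Its difference of 2.60 was not called without 48 h replicate 2 (limma adjusted p = 0.0573). Ppic, cyclophilin C, had 1.10, 1.04 and 5.04 at 48 h, against -0.71, 0.01 and 0.66 at 6 h, and its difference was 2.41 ± 0.45 (limma adjusted p = 0.000757). In all 3 genes the 48 h arrays still lay above every 6 h array. Ppic and the other 9 of the 12 rises, all but Gng2 and Crtap, were called whichever single array was left out.

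**Figure D1:**
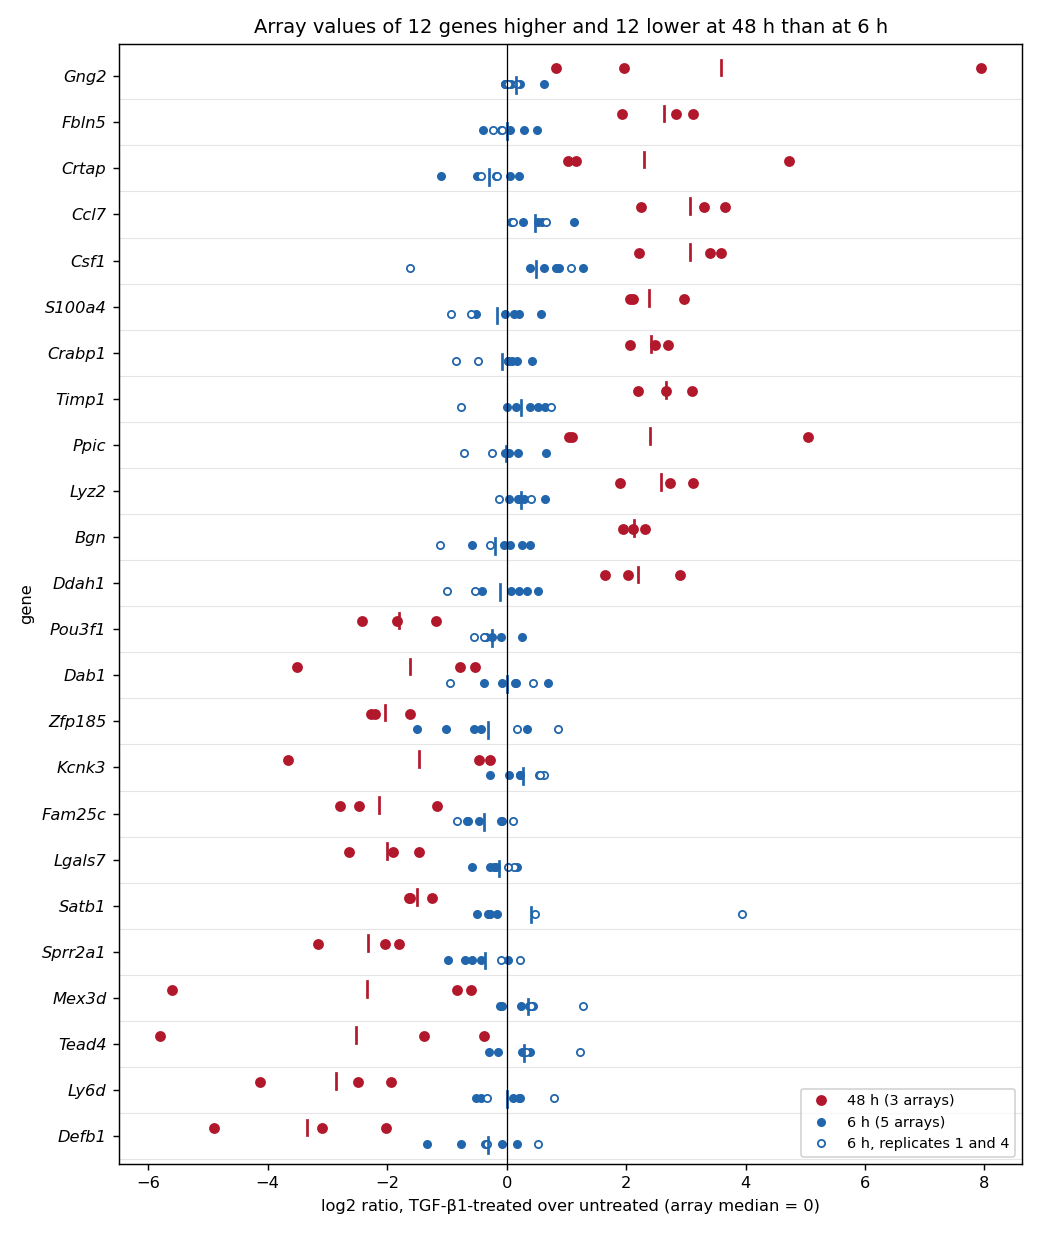
Log2 ratios (treated over untreated, array median at 0) of the 12 largest rises and 12 largest falls named by the rule, one row per gene, with 48 h arrays (red) above 6 h arrays (blue) in each row and a short bar at each group's mean. Open circles are 6 h replicates 1 and 4. In 23 of the 24 genes the 48 h arrays do not overlap any 6 h array, Dab1 being the exception. The rule itself required no overlap with the 6 h arrays other than replicates 1 and 4, so this count is a description. Of all features, 4.58% were higher and 2.68% lower at 48 h without any overlap. Gng2, Crtap, Ppic, Tead4, Mex3d, Kcnk3 and Dab1 each have 1 array at 48 h far from the other 2.

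Among the largest falls were products of differentiating epidermis. Defb1, an antimicrobial β-defensin of epithelia, had log2 ratios of -2.02, -4.90 and -3.09 at 48 h, against -1.33, -0.34 and 0.53 at 6 h. The lowest 6 h array stayed above all 3 arrays at 48 h, and the difference was -3.03 ± 0.48, an 8.15-fold lower ratio (limma adjusted p = 7.53e-05). Ly6d, a surface protein of stratified epithelium, had -2.49, -4.13 and -1.93 at 48 h, against -0.51, 0.11 and 0.79 at 6 h, a difference of -2.86 ± 0.44 (limma adjusted p = 6.33e-05). Sprr2a1, a small proline-rich protein of the cornified envelope, had -1.80, -3.15 and -2.03 at 48 h, against -0.97, -0.43 and 0.23 at 6 h. Its difference was -1.97 ± 0.31 (limma adjusted p = 7.53e-05), and near-identical copies of this gene may share the probe. Lgals7, a galectin of stratified epithelia, had -1.47, -2.64 and -1.91 at 48 h, against -0.59, -0.18 and 0.17 at 6 h. The groups were apart, with a difference of -1.87 ± 0.29 (limma adjusted p = 7.53e-05).

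Transcription factors and less studied genes made up the rest of the falls. Zfp185, a LIM-domain protein, had -1.62, -2.27 and -2.20 at 48 h, against -1.51, -0.44 and 0.87 at 6 h, so that the groups nearly met (difference -1.73 ± 0.37, limma adjusted p = 0.00453). Pou3f1, a POU-domain transcription factor, had -1.83, -2.41 and -1.18 at 48 h, against -0.55, -0.35 and 0.27 at 6 h, a difference of -1.56 ± 0.31 (limma adjusted p = 0.00215). Fam25c had -2.47, -2.79 and -1.16 at 48 h, against -0.82, -0.46 and 0.11 at 6 h, a difference of -1.76 ± 0.39 (limma adjusted p = 0.00584). Neither Pou3f1 nor Fam25c was called without 48 h replicate 2 (limma adjusted p = 0.0646 and 0.109). Satb1, a chromatin organizer, had -1.26, -1.63 and -1.62 at 48 h, against -0.49, -0.28 and 3.94 at 6 h, where the highest value was that of replicate 1. Its difference was -1.91 with all 7 arrays and -1.19 without replicates 1 and 4 (limma adjusted p = 0.0188 and 0.00396), and it was not called without 48 h replicate 2 or without 48 h replicate 5.

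For the last 4 falls 1 array at 48 h gave most of the size. Tead4, a transcription factor of the Hippo pathway, had -1.38, -5.80 and -0.38 at 48 h, against -0.30, 0.29 and 1.24 at 6 h. Mex3d, an RNA-binding protein, had -0.60, -5.61 and -0.82 at 48 h, against -0.11, 0.37 and 1.28 at 6 h. Without 48 h replicate 2, neither Tead4 nor Mex3d was called (limma adjusted p = 0.47 and 0.279). Kcnk3, a potassium channel measured by 2 probes, had -3.65, -0.28 and -0.46 at 48 h, against -0.27, 0.23 and 0.63 at 6 h, and was not called without 48 h replicate 1 (limma adjusted p = 0.38). Dab1, an adaptor of reelin signalling, had -0.53, -0.78 and -3.52 at 48 h, against -0.94, 0.14 and 0.69 at 6 h. Its lowest 6 h array was replicate 1, which overlapped the 48 h arrays, and the call was lost without 48 h replicate 5 or without 6 h replicate 3 (limma adjusted p up to 0.427). Of the 12 falls, Defb1, Ly6d, Sprr2a1, Lgals7 and Zfp185 were called whichever single array was left out.

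Of the 96 features called only with all 7 arrays at 6 h, 61 were higher and 35 lower, and 93 had a smaller difference without replicates 1 and 4. Their adjusted p without these arrays reached 0.247 at most and was under 0.1 in 46. The 4 largest rises of this kind were Mmp9, Col1a2, Ppp4r3a and Zswim6. Mmp9, a gelatinase, had 2.37, 3.53 and 2.32 at 48 h, against -0.27, 0.33 and 1.55 at 6 h. Its groups did not overlap, and its difference was 2.32 with and 2.30 without the 2 arrays (limma adjusted p = 0.0274 and 0.0672), and it was not called without 48 h replicate 1 or 2 either. Col1a2, a chain of type I collagen, had 1.78, 2.81 and 0.90 at 48 h, against -0.88, -0.11 and 0.90 at 6 h, so that the groups touched. Its difference of 1.94 ± 0.56 was close to the threshold (limma adjusted p = 0.0481) and was lost on leaving out any single 6 h array other than replicate 7, or 48 h replicate 1 or 2. In Ppp4r3a and Zswim6 the rise came from 48 h replicate 5 alone, at 4.99 and 3.51, and neither was called without it.

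The 4 largest falls lost in this way had widely scattered values. Tac1, a tachykinin precursor, had -1.15, -6.29 and -0.96 at 48 h, against -0.86, 0.20 and 7.69 at 6 h, with 6.93 on replicate 1. Its difference was -4.76 ± 1.33 (limma adjusted p = 0.0388) and was lost without 48 h replicate 2, 6 h replicate 1 or 6 h replicate 3. At 48 h 2410022M11Rik had -7.70, -3.26 and -0.27, Zfp444 had -6.88, -2.21 and -0.35, and Hsd17b13 had -6.46, -2.15 and 0.10. Their lowest 48 h array was replicate 1 each time, and none of these 3 was called without it. Without 48 h replicate 2, 2410022M11Rik and Hsd17b13 were not called either, and Hsd17b13 was also lost without any single 6 h array other than replicate 7.

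**Figure D2:**
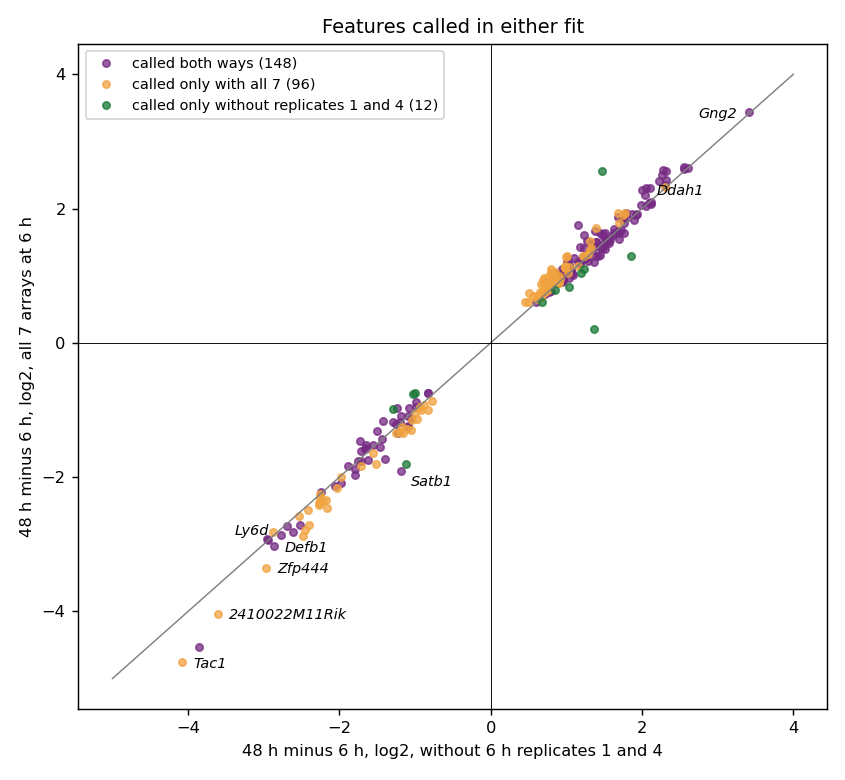
The 48 h minus 6 h difference (log2) of each feature called in either fit, with all 7 arrays at 6 h on the vertical axis and without 6 h replicates 1 and 4 on the horizontal axis; the grey line marks equal values. The 148 features called both ways and the 96 called only with all 7 arrays share the sign of the difference, and Satb1 and Tac1 lie below the line.

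Collagens and the proteins that mature them were higher at 48 h in 5 of 19 measured members and lower in none (26.3% higher, against 1.85% of all features), with a median difference of 0.93 against 0.01 over all features. Lox, which cross-links collagen and elastin, had 2.11, 1.70 and 1.90 at 48 h, against -1.19, -0.03 and 0.12 at 6 h. Pcolce, an enhancer of procollagen processing, had 2.27, 1.66 and 1.46 at 48 h, against -0.38, -0.19 and 0.20 at 6 h. Both were apart at the 2 times, by 2.09 ± 0.31 and 1.92 ± 0.27 (limma adjusted p = 2.87e-05 and 1.64e-05). Col1a2, Col4a2 (difference 1.42) and the collagen chaperone Serpinh1 (1.01) also passed. Col4a2 and Serpinh1 did not pass without 48 h replicate 1 or 2 (limma adjusted p up to 0.0982 and 0.107). The list's largest difference, 2.66 for the cross-linking enzyme Loxl1, did not pass (limma adjusted p = 0.0813). Without 6 h replicates 1 and 4 there were 4 members called.

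Matrix glycoproteins, proteoglycans and elastic fibre proteins were higher in 7 of 33 members (21.2%, against 1.85% of all features) and lower in none (median 0.45). Besides Fbln5 and Bgn they were Ltbp2 (1.92 ± 0.34), which binds elastic fibres, Fbln2 (1.78 ± 0.36), Mfap5 (1.53 ± 0.25), the matricellular Ccn1 (1.28 ± 0.37) and Sparc (1.14 ± 0.32). Ltbp2, Fbln2 and Mfap5 were called whichever single array was left out, with limma adjusted p up to 0.0103, 0.0431 and 0.00387. Ccn1 was close to the threshold (limma adjusted p = 0.0479) and was not called without 6 h replicates 1 and 4 (0.19). Without any 1 of 48 h replicates 1 and 2 or 6 h replicates 1, 3, 4 and 5 it was not called either (highest limma adjusted p 0.344). Sparc, a collagen-binding matrix protein, passed with all 7 arrays at 6 h (limma adjusted p = 0.0407) but not without replicates 1 and 4 (0.156).

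Matrix proteases and their inhibitors were higher in 8 of 25 members (32%, against 1.85% of all features) and lower in none (median 0.73). Mmp9 and Ctsz were lost without 6 h replicates 1 and 4 (limma adjusted p = 0.0672 and 0.0574). Mmp2, a gelatinase, had 1.98, 1.79 and 1.72 at 48 h, against -0.12, 0.07 and 0.56 at 6 h. It stood apart in all arrays, by 1.67 ± 0.24 (limma adjusted p = 2.7e-05). Serpinf1, a secreted serpin, differed by 1.52 ± 0.35 and the cathepsin Ctsl by 1.51 ± 0.32 (limma adjusted p = 0.00901 and 0.00371), and the others were Timp1, Mmp9, Ctss, Ctsz and Adam9. Serpinf1 was not called without 48 h replicate 1, nor Ctsl without 48 h replicate 2 (limma adjusted p = 0.104 and 0.0675).

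Mesenchymal genes were higher in 6 of 19 members (31.6%, against 1.85% of all features) and lower in none (median 1.00). All but Sparc were also called without 6 h replicates 1 and 4. Cdh2, the cadherin of mesenchymal and neural cells, had 1.82, 2.46 and 1.52 at 48 h, against 0.10, 0.20 and 0.54 at 6 h. Twist1, a transcription factor of mesenchymal differentiation, had 1.58, 1.48 and 0.77 at 48 h, against -0.23, 0.09 and 0.32 at 6 h. In both genes every 48 h array exceeded every 6 h array, by 1.63 ± 0.41 and 1.24 ± 0.25 (limma adjusted p = 0.0188 and 0.00215). Cdh2 was not called without 48 h replicate 1 or 2 (limma adjusted p up to 0.196). Cnn1, a smooth muscle actin-binding protein, differed by 1.16 ± 0.21 (limma adjusted p = 0.000559). It was the 1 member called among 37 integrin, focal adhesion and actin genes (2.70%, near the 1.85% of all features, median 0.13), of which Itga5, the fibronectin receptor chain, narrowly missed with 1.20 (limma adjusted p = 0.054). In the fibroblast marker list the mean log2 ratio per array was 0.38 to 0.63 at 48 h and -0.57 to 0.11 at 6 h. Every measured member but Dpep1 is also in the collagen, matrix or mesenchymal list, so this is not a separate result. Col1a2 (1.94) and Mfap5 (1.53) were called, whereas Thy1 (0.05), Dcn (0.09) and Prrx1 (0.14) had small differences and were not. The part of fibroblasts in these differences was not tested.

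Of 28 TGF-β and SMAD target genes, which answer the factor directly, 3 were higher (Ltbp2, Hmox1 and Ccn1) and none lower, which is 10.7% against 1.85% of all features, with a median of 0.27. Without 6 h replicates 1 and 4 there were 2. Hmox1, heme oxygenase, differed by 1.47 ± 0.30 (limma adjusted p = 0.00215) and was not called without 48 h replicate 2 (0.0724). The pathway's feedback genes, chosen after their values were seen, were not called. Skil, an inhibitor of SMAD complexes, had means of 0.96 ± 0.22 at 48 h and 0.52 ± 0.64 at 6 h (SD, n = 3 and 7), and the difference was 0.43 with a 95% interval of -0.30 to 1.17. Smad7, the inhibitory SMAD, had 0.74 ± 0.37 at 48 h and 0.19 ± 0.56 at 6 h, with an interval of -0.23 to 1.34 for the difference. Klf10, a TGF-β-induced repressor, had -0.01 ± 0.05 at 48 h and -0.22 ± 0.34 at 6 h. Klf5, a transcription factor of proliferating epithelium, was below 0 at both times, at -1.19 ± 0.53 at 48 h and -0.90 ± 0.63 at 6 h, and its difference of -0.29 did not pass (limma adjusted p = 0.672).

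Of 22 TGF-β ligands, receptors and signal carriers, 2 were higher (9.09%, against 1.85% of all features) and none lower (median 0.13). Tgfb3, a TGF-β isoform, had 1.43, 2.67 and 1.52 at 48 h, against -0.61, -0.19 and 0.61 at 6 h, and the groups did not overlap. Its difference was 1.87 ± 0.42 (limma adjusted p = 0.00836), and without 48 h replicate 2 it was not called (0.158). The other was Ltbp2. Tgfb1, the gene of the added ligand, had 0.03, -0.32 and -0.33 at 48 h, against -0.40, -0.08 and 0.51 at 6 h, with overlapping groups and a 95% interval of -0.74 to 0.34 for the difference. Smad3 had -0.66, -1.48 and -0.01 at 48 h, against -0.64, -0.11 and 0.19 at 6 h. These groups overlapped as well, and the interval of the difference was wide, from -2.23 to 1.12.

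The called members of the epithelial lists went the other way, although the lists were mixed in sign. Of 20 epidermal differentiation and cornified envelope genes, 3 were lower (15%, against 0.887% of all features) and none higher (median -0.44), with and without 6 h replicates 1 and 4. The difference was positive in 7 members and negative in 13. Ppl, periplakin, which underlies the cornified envelope, had -1.07, -1.17 and -1.14 at 48 h, against -0.76, -0.05 and 0.12 at 6 h. The 48 h arrays were nearly equal and all lower, with a difference of -0.97 ± 0.22 (limma adjusted p = 0.0091), although the call was lost without 48 h replicate 2 (0.0535). Fabp5, a fatty acid-binding protein of epidermis, had -0.38, -2.58 and -1.63 at 48 h, against -1.59, -0.22 and 0.48 at 6 h. Its groups overlapped through 6 h replicate 1, and its difference of -1.17 ± 0.34 (limma adjusted p = 0.046) was lost in 8 of the 10 fits that left out a single array. It was not called without 48 h replicate 2 or 5 or without any 6 h array but replicate 1. The third was Sprr2a1.

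Of 35 keratin, desmosome and junction genes, 3 were lower (8.57%, against 0.887% of all features) and none higher (median -0.30). The difference was positive in 9 members and negative in 26, and the highest, 1.38 for Krt8, did not pass (limma adjusted p = 0.178). Trp63, the transcription factor p63 of stratified epithelium, had -0.86, -1.26 and -0.91 at 48 h, against -0.56, -0.21 and 0.45 at 6 h, with no overlap. Its difference was -0.89 ± 0.24 (limma adjusted p = 0.0333) and was lost when any 48 h array or 6 h replicate 2, 3 or 7 was left out (limma adjusted p up to 0.246). Krt19, a simple epithelial keratin, had -0.62, -3.57 and -1.22 at 48 h, against -0.77, -0.52 and 0.51 at 6 h, with overlap. It was not called without 48 h replicate 2 (limma adjusted p = 0.477), and the third gene was Lgals7. Krt5, a basal keratin, had a difference of -0.02 and was not called. All 14 measured keratinocyte markers had negative differences (median -0.45), of which Lgals7 and Trp63 passed. Of all features, 50.8% had a positive difference. Every measured marker but Itga6 and Itgb4 is also in the keratin, desmosome and junction list, so this is not a separate result.

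Chemokines, cytokines and their receptors split, with 4 of 37 higher (10.8%, against 1.85% of all features) and 2 lower (5.41%, against 0.887%), at a median of 0.09. Besides Ccl7, Csf1 and Ccl2, the receptor Tnfrsf1a was higher with all 7 arrays at 6 h (limma adjusted p = 0.0291) but not without replicates 1 and 4 (0.0905). The lower ones were Il33, an epithelial alarmin, with -1.43 ± 0.38, and Ccl27a, a skin chemokine that attracts lymphocytes, with -1.18 ± 0.29 (limma adjusted p = 0.0298 and 0.017). The 48 h and 6 h arrays of Ccl27a did not overlap, whereas 1 array of Il33 at 48 h, at -1.35, lay just above its lowest 6 h array, at -1.36. Il33 was not called without 48 h replicate 1 or 2 or 6 h replicate 4 or 6, and Ccl27a not without 48 h replicate 1 or 2.

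Among 31 interferon and antigen presentation genes 2 were higher (6.45%, against 1.85% of all features) and none lower (median 0.47), both interferon-induced. Ifit3 had 1.43, 0.93 and 1.99 at 48 h, against -0.72, 0.12 and 0.20 at 6 h, a difference of 1.47 ± 0.26 with no overlap (limma adjusted p = 0.000458). Oasl2 differed by 1.30 ± 0.36 (0.0388), and without 6 h replicates 1 and 4 it was not called (0.109). It was also lost without any 1 of 48 h replicates 1 and 2 or 6 h replicates 1, 3, 4 and 5.

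The share of all features called, 1.85% higher and 0.887% lower, applies to the following lists too. Of 41 glutathione and antioxidant genes 3 were higher (7.32%, median 0.26): Hmox1, the transferase Gsto1 (1.19 ± 0.21, limma adjusted p = 0.00041) and the thioredoxin reductase Txnrd1 (1.05 ± 0.29, 0.0347). Of 46 growth factors and receptors 4 were higher (8.70%) and 1 lower (2.17%), at a median of 0.19, namely the secreted Wnt regulator Dkk3 (1.41), Ccn1, the semaphorin and VEGF co-receptor Nrp1 (1.08) and the receptor Igf1r (0.90) against the ephrin receptor Ephb4 (-1.26). Of 32 immediate early, MAP kinase and EGFR-ligand genes the phosphatase Dusp4 was higher (1.39 ± 0.35, limma adjusted p = 0.0178) and none lower (median 0.17). That is 3.12% of the list, near the share of all features. Txnrd1, Igf1r and Ephb4 were not called without 6 h replicates 1 and 4 (limma adjusted p = 0.0823, 0.0766 and 0.0795). Without 48 h replicate 2 the calls of Dusp4, Dkk3, Nrp1, Igf1r, Txnrd1 and Ephb4 were lost, and without 48 h replicate 1 those of Dkk3, Nrp1, Igf1r and Txnrd1. Txnrd1 was also lost without 6 h replicate 1 or 3, and Igf1r without any 1 of 6 h replicates 2 to 6.

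Of 31 apoptosis and p53 genes 2 were higher, Ccng1 (1.21 ± 0.24) and Mdm2 (0.96 ± 0.28), both p53 targets, and 2 lower, Trp73 (-1.18 ± 0.31) and Bak1 (-2.49 ± 0.68), 6.45% each way, with a median of 0.04. Bak1, a pore-forming killer of mitochondria, had -7.04, -0.16 and -0.02 at 48 h, and without 48 h replicate 1 it was far from a call (limma adjusted p = 0.917). It was also lost without 6 h replicate 1 or 3. Ccng1 was lost without 48 h replicate 2, Trp73 without 48 h replicate 2 or 5 or 6 h replicate 3 or 4, and Mdm2 without 48 h replicate 1 or 2 or any 1 of 6 h replicates 2 to 6. Mdm2 and Bak1 were not called without both 6 h replicates 1 and 4 (limma adjusted p = 0.0801 and 0.0823). Of 38 DNA replication genes Dut, which hydrolyses dUTP, was higher (1.43 ± 0.30, limma adjusted p = 0.00302) and the DNA ligase Lig1 lower (-2.09 ± 0.50, 0.0141), 2.63% of the list each way and near the shares of all features, with a median of -0.14, and neither was called without 48 h replicate 2 (0.0724 and 0.551). No member passed among 44 mitosis genes (median -0.19), 31 MYC and ribosome biogenesis genes (0.33), 26 ribosomal proteins (0.10), 33 oxidative phosphorylation genes (0.28), 19 cholesterol and fatty acid synthesis genes (-0.11), 45 proteasome and folding genes (0.30) and 18 glycolysis genes (0.15).

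**Figure D3:**
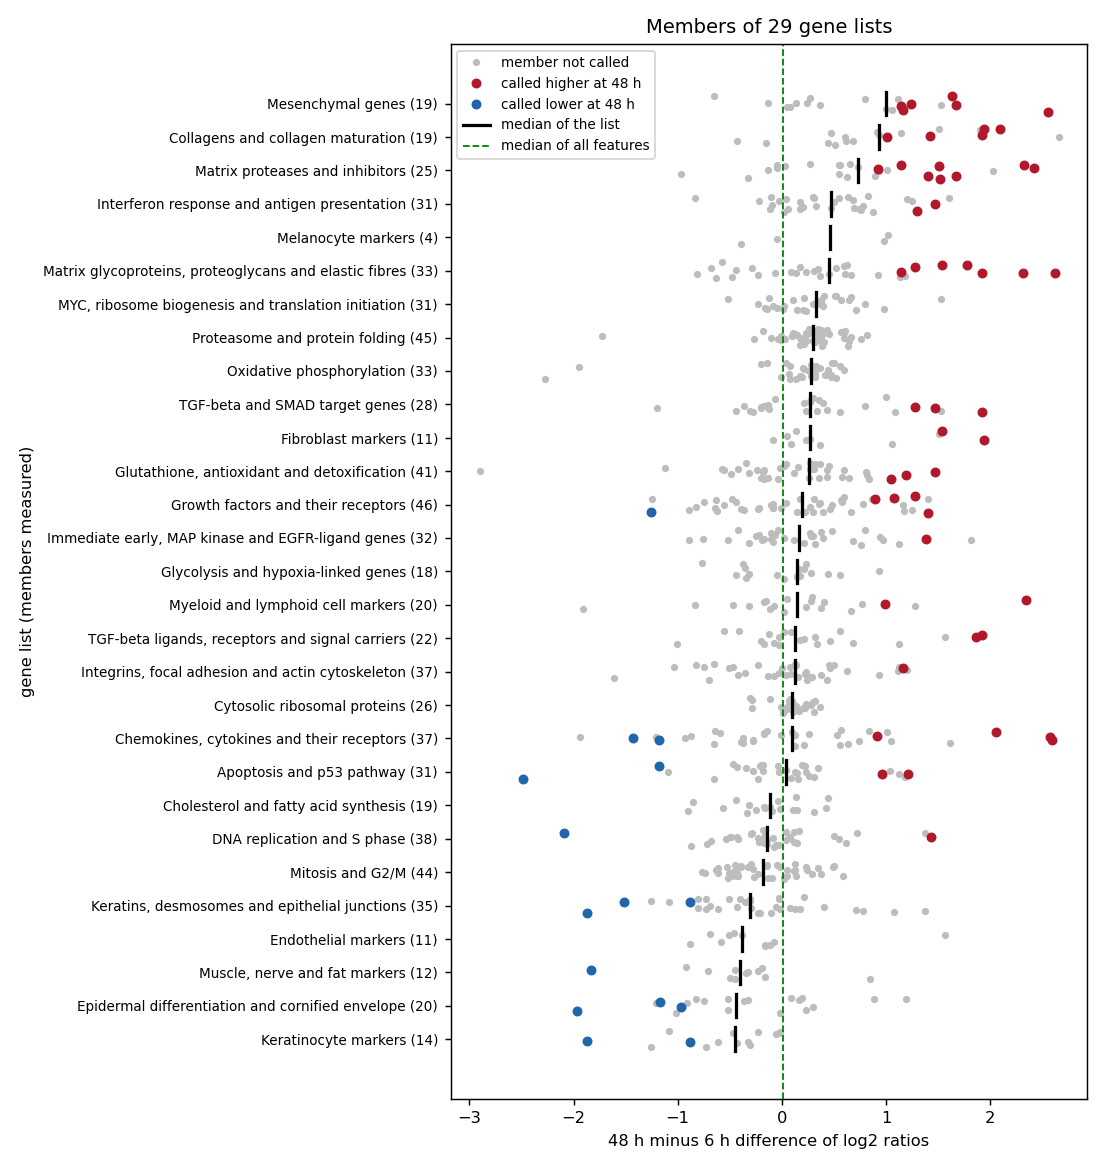
The 48 h minus 6 h difference (log2) of every measured member of 29 gene lists, ordered by the median (black bar), with the number of measured members in brackets; red points were called higher at 48 h, blue points lower, and the dashed green line is the median over all features. Mesenchymal genes (median 1.00) and collagens (0.93) are at the top, and keratinocyte markers (-0.45) are at the bottom.

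Ratios of 2-colour arrays give no level of a gene, so the cell type label could not be checked by level, and the marker lists show only how ratios moved. The mean ratio per array of the 14 keratinocyte markers was -1.26 to -0.16 at 48 h and -0.29 to 0.21 at 6 h. Of 11 fibroblast markers 2 were higher and none lower (median 0.27), Col1a2 and Mfap5, and Col1a1, the other chain of type I collagen, had a difference of 1.51 that did not pass (limma adjusted p = 0.278). Of 20 myeloid and lymphoid markers 2 were higher, Lyz2 and Tyrobp, and none lower (median 0.14). Tyrobp, a signalling adaptor of myeloid cells, differed by 0.99 ± 0.27 (limma adjusted p = 0.0317) and was not called without 6 h replicates 1 and 4 (0.0971). It was also lost without 48 h replicate 1 or 2 or 6 h replicate 1. Ptprc, the pan-leukocyte marker CD45, had a difference of 0.41 that did not pass (limma adjusted p = 0.662). The mean ratio per array of this list was 0.08 to 0.23 at 48 h and -0.42 to 0.24 at 6 h. None of 4 melanocyte (median 0.46) and 11 endothelial (-0.39) markers passed. Of 12 muscle, nerve and fat markers (-0.40) Mbp was lower through 48 h replicate 2, at -4.55, and was not called without that array, without both 6 h replicates 1 and 4, or without any 1 of 6 h replicates 1, 3, 4, 5 and 6.

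The 24 h arrays give a point between the 2 times. Between 24 h and 6 h no feature was higher (0%) and 5 were lower (0.0561%), whereas between 48 h and 24 h 122 were higher (1.37%) and 26 lower (0.292%), by limma in the same fit. These comparisons share their 48 h, 24 h or 6 h arrays. Ccl7 had means of 0.34, 0.48, 1.00 and 3.07 at 1, 6, 24 and 48 h, and its 48 h minus 24 h difference was 2.07 (limma adjusted p = 0.000392). S100a4 had -0.30, -0.17, 0.24 and 2.38, and 48 h minus 24 h was 2.15 (limma adjusted p = 0.000757). In both genes most of the difference lay after 24 h. The same held for Lox, with -0.22, -0.19, 0.06 and 1.90 and a 48 h minus 24 h difference of 1.84 (limma adjusted p = 0.000757). By their estimates, other rises lay partly before 24 h. Csf1, Bgn and Col1a2 had 24 h minus 6 h differences of 1.03, 1.03 and 1.06, none of which passed. Their 48 h minus 24 h differences were 1.545, 1.28 and 0.87 (limma adjusted p = 0.076, 0.0459 and 0.532).

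Some barrier genes were already low at 24 h. Sprr2a1 had means of 0.09, -0.36, -2.45 and -2.33 at 1, 6, 24 and 48 h, Ppl had 0.08, -0.15, -1.03 and -1.12, and Fabp5 had -0.21, -0.36, -2.05 and -1.53. Their 24 h minus 6 h differences of -2.10, -0.88 and -1.69 passed (limma adjusted p = 2.01e-06, 0.0378 and 0.000786). Their 48 h minus 24 h differences of 0.13, -0.10 and 0.52 did not pass (limma adjusted p = 0.94, 0.936 and 0.537). Defb1 had -0.13, -0.31, -1.39 and -3.34, and its 48 h minus 24 h difference was -1.95 (limma adjusted p = 0.0295), and Zfp185 had -0.07, -0.30, -0.28 and -2.03, with a 48 h minus 24 h difference of -1.75 (limma adjusted p = 0.0093). Clu, the secreted chaperone clusterin, chosen after its values were seen, had 0.27, 0.60, 2.18 and 2.87. Its 48 h minus 6 h difference was 2.28 ± 0.58 (limma adjusted p = 0.02) and was not called without 48 h replicate 1 or 2. For Clu the 24 h minus 6 h difference of 1.58 and the 48 h minus 24 h difference of 0.70 did not pass (limma adjusted p = 0.483 and 0.661).

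**Figure D4:**
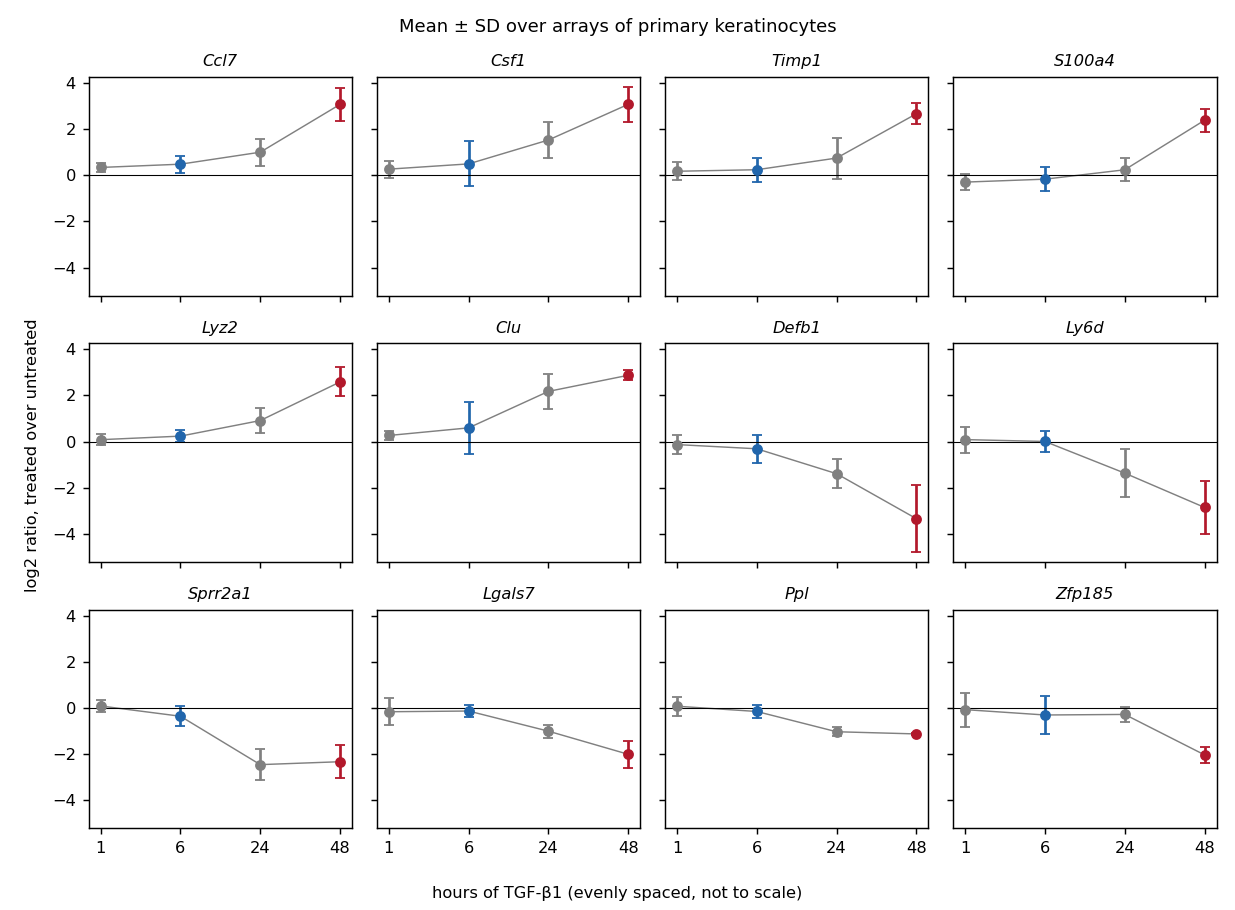
Mean log2 ratio ± SD over the arrays of primary keratinocytes at 1, 6, 24 and 48 h (6, 7, 6 and 3 arrays) for 12 genes, with times evenly spaced and not to scale. Ccl7, S100a4 and Zfp185 leave the 6 h ratio mainly after 24 h, whereas Sprr2a1 and Ppl have similar means at 24 h and 48 h.

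In ras keratinocytes the 48 h minus 6 h comparison gave 1 higher (0.0112%) and 2 lower features (0.0225%), and 633 features had an unadjusted p under 0.05, against 1373 in primary cells. The difference of the differences, ras minus primary, was called for 1 of 8905 features (0.0112%, with 388 at an unadjusted p under 0.05). That gene was Mxra8, a matrix remodelling-associated surface protein. Its 48 h minus 6 h difference was 0.30 in ras cells and 1.93 ± 0.23 in primary cells, and ras minus primary was -1.63 (limma adjusted p = 0.0336). In primary cells Mxra8 had 1.69, 1.63 and 1.91 at 48 h, against -1.01, -0.06 and 0.21 at 6 h, with tight 48 h arrays far above every 6 h array. Without 6 h replicates 1 and 4 no feature was called in ras minus primary (318 at an unadjusted p under 0.05), and the count was also 0 without 48 h replicate 2 or 6 h replicate 3, 18 without 48 h replicate 5, and 2 without 6 h replicate 6.

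The 24 largest rises and falls of primary cells kept their sign in ras cells, 12 of 12 rises and 12 of 12 falls. The share of all features that do so was not computed, so these counts are a description. Some ras differences were smaller in size than their SE, namely Gng2 (0.02 ± 0.61), Crtap (0.40 ± 0.42), Tead4 (-0.37 ± 0.60), Kcnk3 (-0.25 ± 0.35) and Dab1 (-0.10 ± 0.38). Of the 24 genes, 1 was called in ras cells. This was Sprr2a1, with a difference of -1.78 in ras cells (limma adjusted p = 0.00139) and -1.97 in primary cells. Fabp5 was called in ras cells as well, with -1.60 (limma adjusted p = 0.0239) against -1.17 in primary cells. Ccl7 differed by 1.15 in ras cells and 2.59 in primary cells, S100a4 by 0.39 and 2.55, and Crabp1 by 0.46 and 2.50. For Ccl7, S100a4 and Crabp1 the ras minus primary test did not pass (limma adjusted p = 0.498, 0.121 and 0.0887), so a difference between the cell types was not shown.

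**Figure D5:**
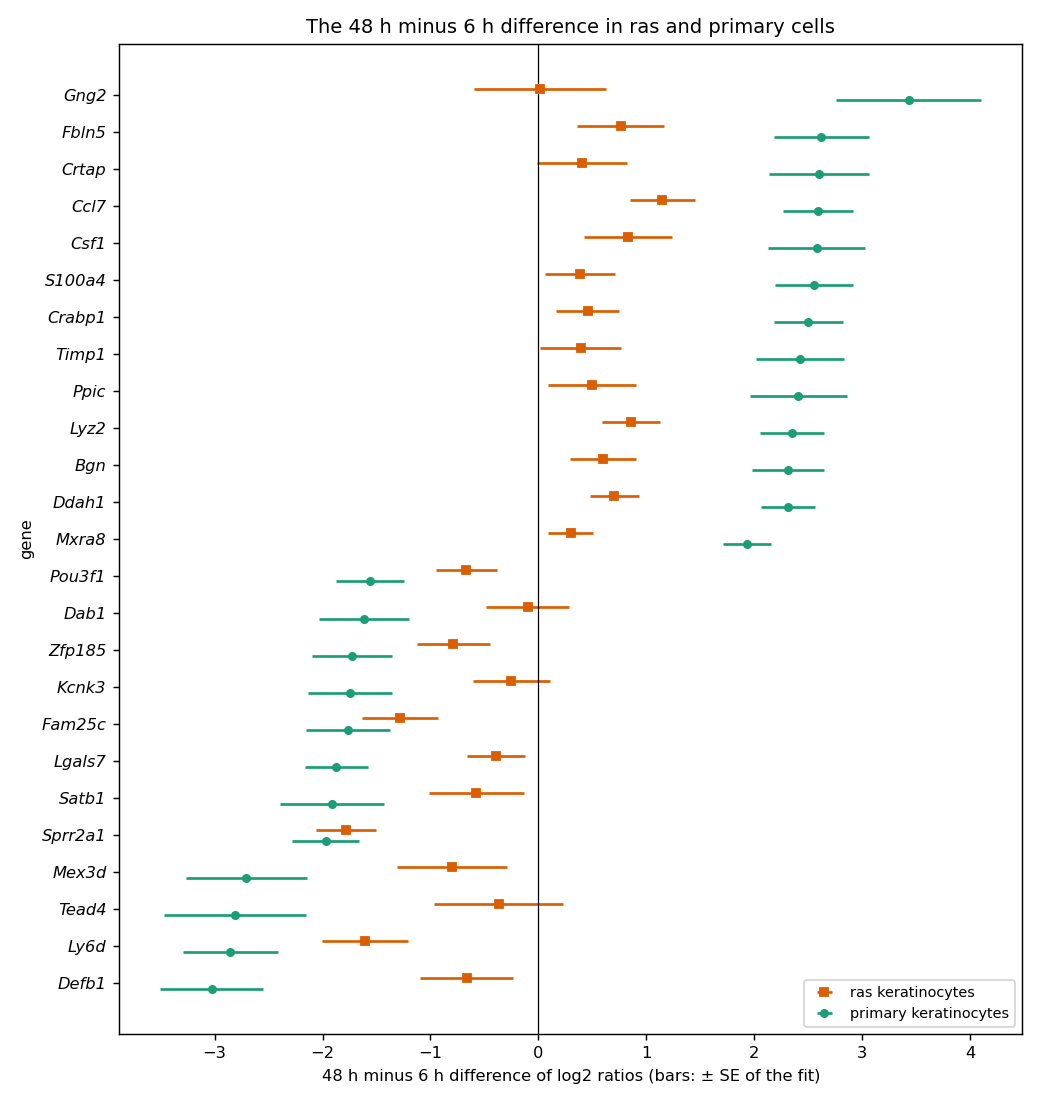
The 48 h minus 6 h difference (log2, bars are ± SE of the fit) in ras keratinocytes (orange squares) above primary keratinocytes (green circles) for the 24 largest rises and falls and Mxra8. Each ras value has the sign of the primary value, although those of Gng2, Crtap, Tead4, Kcnk3 and Dab1 are smaller in size than their SE. Sprr2a1 is similar in both, at -1.78 in ras and -1.97 in primary cells. Mxra8 is the 1 gene whose difference between the cell types was called.

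The titles carry experiment numbers, whose meaning the labels do not give, and 2 ranges of these numbers hold both times. Within the first, 48 h replicate 1 minus 6 h replicate 6 was positive for 12 of 12 rises and negative for 12 of 12 falls. Within the second, 48 h replicate 2 minus 6 h replicate 7 gave 12 of 12 and 12 of 12 as well. The rule that chose these genes used the same arrays, so the counts are a description. For Ccl7 the differences within the ranges were 2.79 and 2.53, for Timp1 2.67 and 2.59, for Defb1 -1.26 and -4.82, and for Lgals7 -0.89 and -2.81. The other arrays compared, 6 h replicates 1 to 5 and 48 h replicate 5, lie in number ranges that hold only 1 of the 2 times. For those arrays time and number range cannot be told apart.

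Arrays that the choice of genes did not use gave mixed values. On the 1 array of Smad3 wild type primary keratinocytes at 48 h, 11 of the 12 rises were above 0, from -0.16 to 1.42, and 4 of the 12 falls were below 0, from -1.23 to 5.75, with 49.6% of all features above 0. That array has no replicate, and its highest value, 5.75, belonged to Mex3d. On the reversed 48 h arrays, replicates 3 and 4, as deposited, 2 and 1 of the 12 rises were above 0, and 4 and 4 of the 12 falls were below 0. Ccl7 had -2.52 and -1.58 on them and Defb1 had 4.15 and 2.33, the opposite of the other 48 h arrays. Whether the sign of reversed arrays had been turned before deposit is not given in the sources used here.

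As examples of a gene that rose and a gene that fell, the promoters of S100a4 and Lgals7 are given. The SMAD box, the letters CAGAC on either strand, is in capitals, and its part in the differences was not tested. The promoters span 250 bases before to 50 after the gene's start, 5′ to 3′ on the gene's strand, from RefSeq on GRCm38.p6. S100a4 lies on the + strand at chr3:90603520-90603819 and Lgals7 on the + strand at chr7:28864136-28864435.
S100a4: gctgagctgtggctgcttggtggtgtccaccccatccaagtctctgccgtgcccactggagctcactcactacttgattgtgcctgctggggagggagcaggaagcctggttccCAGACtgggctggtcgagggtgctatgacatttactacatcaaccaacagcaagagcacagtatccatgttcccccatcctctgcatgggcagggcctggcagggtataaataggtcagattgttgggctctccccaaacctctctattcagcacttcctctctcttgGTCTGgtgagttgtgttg
Lgals7: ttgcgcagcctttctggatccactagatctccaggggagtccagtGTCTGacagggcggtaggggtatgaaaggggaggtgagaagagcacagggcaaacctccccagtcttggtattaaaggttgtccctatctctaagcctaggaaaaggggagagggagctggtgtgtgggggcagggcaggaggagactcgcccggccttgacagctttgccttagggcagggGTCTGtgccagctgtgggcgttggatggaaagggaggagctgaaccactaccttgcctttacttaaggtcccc
Each window held 2 matches. RefSeq promoters were found for 102 of the 138 named higher genes (136 windows) and 46 of the 64 named lower genes (75 windows). The box was present in 55.9% of the windows of higher genes, in 57.3% of those of lower genes and in 49.6% of all 32851 windows. The AP-1 site TGANTCA, also searched on both strands, was present in 8.09% of windows of higher genes, 9.33% of lower genes and 7.81% of all windows. A match is a description of letters and not of binding.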

How the data were processed

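The authors deposited log ratios of 9596 probes for 56 arrays, none of them missing. The base is unstated, and the deposited values were used as log2 from their size. Per the labels, channel 1 held untreated RNA (Cy3) and channel 2 treated RNA (Cy5), except on 7 arrays named as reversed, which were left out. How the authors scanned, corrected and normalized the arrays is not given in the sources used here. The array medians as deposited lay between -0.146 and 0.02. Each array was centred on its median. Probes were named from the platform annotation: 7486 had 1 symbol, 483 several and 1627 none listed, and 7395 of the first matched RefSeq. Probes of 1 gene were averaged.

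All 49 arrays were fitted by group in limma 3.58.1 (R 4.3.3), so that the groups share 1 spread, with two-sided contrasts and Benjamini-Hochberg adjustment over 8905 features at 0.05. The fit was also run on simulated data with normal noise of 1 spread per feature on all arrays. These data lacked the unequal spreads and single extreme values of the real arrays, so the run did not cover those. Tables used Python 3.11.15.

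The text names the 12 largest rises and falls called with all 7 arrays at 6 h and without replicates 1 and 4, with no overlap against the other 5 arrays at 6 h. It also names the 4 largest rises and falls lost without those 2 arrays, up to 5 called members per list by size, Smad3, Tgfb1 and up to 6 genes called in ras minus primary. Skil, Smad7, Klf10, Klf5 and Clu, and the list members named without passing the test, were chosen after their values were seen. The comparison and the 29 gene lists were chosen with earlier results of these data known. The alternatives were other arrays, blocks, scalings, weights and filters.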

Additional observations from a re-analysis of the deposited data

Results flagged for a closer look

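Among the 80 named genes, 13 had 1 array at 6 h far from the other 6 by Dixon's test at the 95% level (a gap over 0.568 of the range). The test flags about 1 in 20 groups by chance when groups are not chosen by their values. The named genes were chosen in part through these same 6 h arrays, also by leaving out replicates 1 and 4. The counts are therefore a description and cannot be set against that rate. Replicates 1 and 4 gave 4 each, replicates 3 and 6 gave 2 each, and replicate 7 gave 1. On replicate 1 the values were 3.94 for Satb1, 2.43 for 2410022M11Rik and 1.28 for Mex3d, all high, and -0.89 for Cnn1, low. On replicate 4 they were all low, at -1.61 for Csf1, -0.99 for Hmox1, -0.84 for Skil and -1.78 for Clu. On replicate 3 Gng2 was high at 0.62 and Ifit3 was low at -0.72, on replicate 6 Lox was low at -1.19 and Smad7 was high at 1.35, and on replicate 7 Hsd17b13 was low at -2.39.

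The 48 h minus 6 h difference of Mxra8 differed between the cell types by the test of the difference itself, at -1.63 for ras minus primary (limma adjusted p = 0.0336).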

How the results depend on the processing

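With all 7 arrays at 6 h, 165 features were higher and 79 lower at 48 h, and 1 differed between ras and primary cells. Leaving out 1 array in turn gave 82 to 208 higher, 49 to 164 lower and 0 to 18 in ras minus primary. Without 6 h replicates 1 and 4 the lower count was 48 and the ras minus primary count 0. Fits of only the 10 arrays gave 52 higher and 10 lower, and of only the 8 left without those replicates 62 and 13. Scaling the arrays to one spread gave 69, 25 and, for ras minus primary, 0. Array weights gave 142 lower and 14 for ras minus primary, and values as deposited gave 0 for that test. For these moves the cause was not tested. A fixed term for the range of the experiment number in the 10 arrays gave 0 higher and 0 lower in limma (645 at an unadjusted p under 0.05), and a random term gave 138 and 68. A random term, a robust spread, single probes, values as deposited and the loss of features beyond 6 kept both counts within 1.5 times.

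A replicate block in the 10 arrays gave 0 higher and 0 lower in limma, with 428 features at an unadjusted p under 0.05. Replicate numbers 1, 2 and 5 occur at both times and the others only at 6 h, so that fit rests on few arrays. Deviations from the group means correlated at -0.0508, -0.123 and -0.0574 for the same numbers, with 0 of 3 best matched to their own number. Over all combinations the correlations were weak, from -0.205 to 0.189, and 3 pairs cannot exclude a pairing. The main fit did not use the numbers to pair the arrays.

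Adding the 2 reversed arrays as deposited left 3 higher and 0 lower in limma (1494 at an unadjusted p under 0.05) and 0 for ras minus primary. With these arrays the differences of Sprr2a1 (0.40), Lgals7 (0.0105), Fabp5 (0.47), Ppl (0.11), Trp63 (0.13) and Ccl27a (0.17) changed sign. With their sign turned, 110 were higher, 78 lower and 0 differed in ras minus primary. Of the 74 named genes called, 17 were lost without 6 h replicates 1 and 4, and 2 to 39 without a single array, the most without 48 h replicate 2. Fits of only the 10 or 8 arrays lost 45 each, scaling 32, the sign-turned arrays 26, and the replicate block and the fixed number term 74 each. None of these changed a sign.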
